A study of Mus musculus with 9 samples.

Results

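Ptgds, Dcn, Col1a1 and Vtn are genes used to mark the membranes around the brain and the fibroblast and vessel-wall cells that enter it with blood vessels. They were taken by name, and the 4 genes were all found among the 2996 genes analysed here. Their transcripts were counted by mRNA sequencing of 9 libraries made from mouse brains after perfusion, and the mice are described as aged, at 24 months. The 3 libraries of group L came from mice given perfluorooctane sulfonate (PFOS), a persistent fluorinated surfactant, at 0.5 µg per litre of drinking water for 7.5 months. The 3 libraries of group H came from mice given 50 µg per litre for the same time, and the 3 libraries of group C form the comparison group, whose labels name no dose of PFOS. The age, the drinking-water route and housing free of specific pathogens apply to every group. No strain or sex is named. Whether the libraries of a group stand for different mice is not said either, so p-values measure only the spread among libraries, part of which may be technical.

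The membranes of the brain are built by fibroblasts, which lay down collagen, the fibrous protein of connective tissue, and proteoglycans, proteins carrying sugar chains that bind collagen. Similar fibroblasts lie around larger vessels inside the brain, while pericytes wrap the capillaries. Ptgds encodes lipocalin-type prostaglandin D synthase, which makes prostaglandin D2, a lipid signal known to promote sleep. It is secreted into the cerebrospinal fluid and is made by cells of the leptomeninges and choroid plexus and also by oligodendrocytes. Dcn encodes decorin, a small leucine-rich proteoglycan that binds collagen fibrils and transforming growth factor beta. Col1a1 encodes the alpha 1 chain of type I collagen. Vtn encodes vitronectin, an adhesion protein that binds integrins and plasminogen activator inhibitor. Liver supplies the vitronectin of plasma, and in mouse brain pericytes are a known source of its transcript.

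On GRCm38, Ptgds (ENSMUSG00000015090) lies on the minus strand of chromosome 2 from 25466709 to 25470046. Dcn (ENSMUSG00000019929) lies on the plus strand of chromosome 10 from 97479609 to 97518143. Col1a1 (ENSMUSG00000001506) and Vtn (ENSMUSG00000017344) are both on the plus strand of chromosome 11, from 94936224 to 94953042 and from 78499091 to 78502324. No other annotated gene overlapped any of the 4. The closest protein-coding gene to Vtn is Sebox, a homeobox gene 1122 bases after it on the same strand. Sebox was at 0.763 to 1.56 FPKM in the L libraries, 0.828 to 2.33 in H and 1.49 to 4.24 in C. It was highest in C1, where Vtn was at an intermediate level, so the neighbours did not follow the same order of libraries. Sgca, which encodes a muscle membrane protein and lies 9748 bases after Col1a1 on the other strand, was at 0.0914 to 0.339 FPKM over the 9 libraries.

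Because the levels of the members varied together over the libraries, the start regions of those with an entry in the RefSeq table are shown. That table (GRCm38.p6; 250 bases before to 50 after the start site) held 2 of the 4 genes, Ptgds and Vtn. The window of Ptgds is chr2:25469700-25469999 on the minus strand and that of Vtn is chr11:78498870-78499169 on the plus strand. Both are written from 5′ to 3′ on the gene's strand, with capitals for matches to TGANTCA, the AP-1 motif, or TATAAA, the TATA motif, on either strand.
Ptgds: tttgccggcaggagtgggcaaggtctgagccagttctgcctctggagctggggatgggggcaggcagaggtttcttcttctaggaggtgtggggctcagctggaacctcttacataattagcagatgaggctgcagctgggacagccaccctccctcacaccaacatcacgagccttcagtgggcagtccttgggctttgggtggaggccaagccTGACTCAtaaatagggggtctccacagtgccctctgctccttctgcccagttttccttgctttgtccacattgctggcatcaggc
Vtn: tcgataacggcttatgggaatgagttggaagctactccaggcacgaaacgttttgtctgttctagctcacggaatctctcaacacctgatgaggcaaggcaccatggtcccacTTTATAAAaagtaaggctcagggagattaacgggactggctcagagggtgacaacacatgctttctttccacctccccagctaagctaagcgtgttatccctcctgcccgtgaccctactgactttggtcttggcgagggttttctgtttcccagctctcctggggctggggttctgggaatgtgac
The Ptgds window held 1 match to TGANTCA, at position -35 from the start site, and none to TATAAA. The Vtn window held 2 overlapping matches to TATAAA, at -137 on the minus strand and at -135 on the plus strand, and none to TGANTCA. Of 32851 windows of this length, 7.81% held TGANTCA and 13.6% TATAAA. The E-box letters CANNTG occurred 3 times in the Ptgds window and 2 times in that of Vtn, and 72.3% of all windows held at least 1 such match. GGGCGG (35.7% of windows) and CCAAT (37.4%) occurred in neither. The letters that were capitalised in each window were thus not shared between the genes. A match is a description of letters and not a binding site.

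The 4 genes stood at very different levels. FPKM counts the fragments of a gene per kilobase of its transcript and per total of reads in the library, so that levels of different genes can be set side by side. Ptgds averaged 316.9 FPKM over the 9 libraries and ranked 9 of 2996 genes. Vtn averaged 32.7 FPKM (rank 315), Dcn 4.53 FPKM (rank 1555) and Col1a1 0.801 FPKM (rank 2255). The reads behind these values were 2265 to 20969 per library for Ptgds, 678 to 1962 for Vtn, 109 to 1774 for Dcn and 41 to 197 for Col1a1. Each gene was above 1 FPKM in at least 3 libraries and so entered the test, but Col1a1 did so only through L1, L2, L3 and H1. A filter of this kind keeps Col1a1 because of the libraries in which it was high.

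Library totals were 15371513 to 20431208 reads, and the 2996 genes held 3008813 to 4153307 of them. Brain region markers differed widely between libraries and across groups, before any result on the 4 genes. The summed level of 4 measured cerebellar markers was 126.3 FPKM in L3 and 548.6 in C1, against 44.0 in L1, 11.5 in H1 and 2.45 to 4.37 in the other 5 libraries. The summed level of 3 striatal markers was 59.8 FPKM in L1, 55.7 in H2, 23.0 in C2 and 26.4 in C3, and at most 3.09 in the other 5. The libraries thus differed in the level of these regional markers. Whether different parts of the brain were taken was not tested. In bulk tissue, fewer cells of a type and less RNA per cell cannot be told apart.

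Ptgds, the most abundant of the 4, was at 380.7, 635.8 and 243.2 FPKM in L1 to L3, at 589.2, 170.7 and 226.5 in H1 to H3, and at 276.3, 240.7 and 89.4 in C1 to C3. L2 and H1 lay far above the other libraries and C3 far below them, and all 3 groups overlapped. The group means were 419.9 ± 199.2 FPKM in L, 328.8 ± 227.2 in H and 202.1 ± 99.3 in C (SD, n = 3 each).

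Dcn was at 2.50, 15.2 and 7.53 FPKM in L1 to L3, at 5.14, 1.32 and 1.35 in H1 to H3, and at 4.42, 2.09 and 1.21 in C1 to C3. It had the widest range of the 4, with L2 12.5 times C3. L1 lay within the C range for this gene, so that L and C overlapped, as did every other pair of groups. Means were 8.41 ± 6.39 FPKM in L, 2.602 ± 2.20 in H and 2.58 ± 1.66 in C (SD, n = 3 each).

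Col1a1 was at 1.003, 1.501 and 1.04 FPKM in L1 to L3, at 1.07, 0.353 and 0.394 in H1 to H3, and at 0.648, 0.791 and 0.406 in C1 to C3. Every L library was above every C library, whereas H1 lay inside the L range and H2 and H3 lay below all C libraries. At this depth the counting error is not small: the 95% Poisson interval was 0.823 to 1.21 FPKM in L1 and 0.644 to 0.962 in C2, the closest pair, and these intervals overlap. They cover counting error only. Means were 1.18 ± 0.278 FPKM in L, 0.607 ± 0.405 in H and 0.615 ± 0.194 in C (SD, n = 3 each).

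Vtn was at 34.8, 48.3 and 38.2 FPKM in L1 to L3, at 38.6, 24.8 and 23.2 in H1 to H3, and at 33.9, 30.6 and 21.7 in C1 to C3. Every L library was again above every C library, by a margin of less than 1 FPKM between L1 and C1, and H1 lay inside the L range. Their Poisson intervals, 32.8 to 36.9 FPKM in L1 and 32.0 to 35.9 in C1, overlap. Vtn had the narrowest range of the 4, with L2 2.22 times C3. Means were 40.5 ± 7.03 FPKM in L, 28.9 ± 8.52 in H and 28.7 ± 6.29 in C (SD, n = 3 each).

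**Figure D1:**
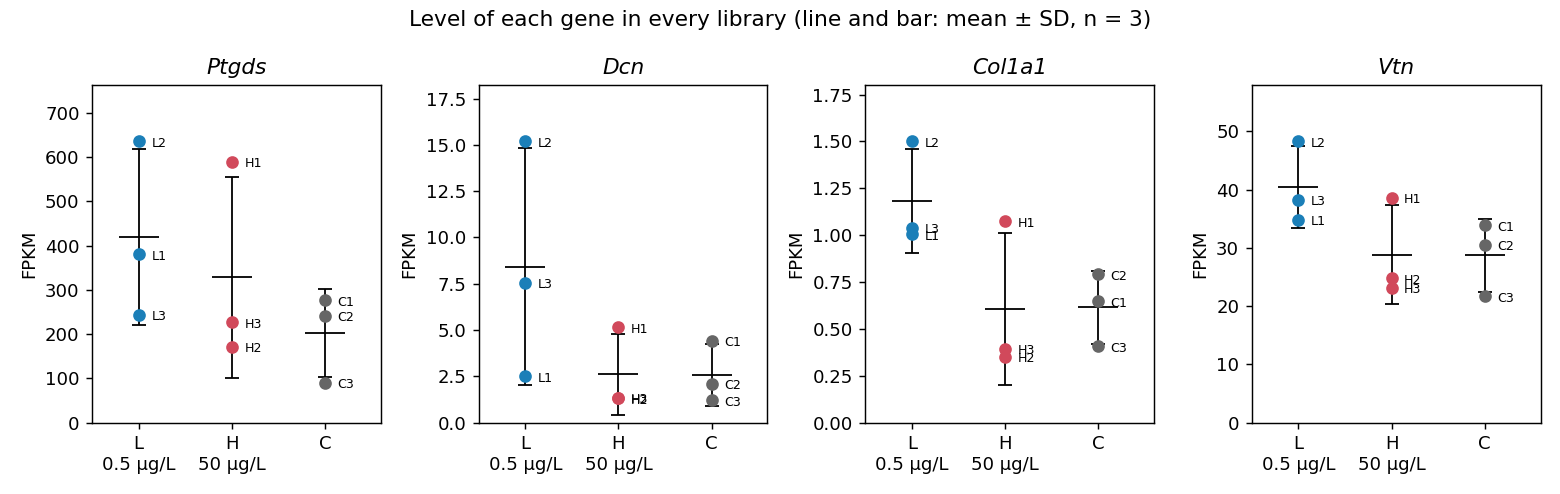
FPKM (linear axis) of Ptgds, Dcn, Col1a1 and Vtn in each of the 9 libraries, by group, with the mean and SD of 3 libraries as a line and bar. L2 is the highest point in all 4 panels and H1 lies apart from H2 and H3 in each.

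The question of L against C was whether these genes differed at the lower PFOS concentration. All 4 had higher means in L, as did 56.3% of all tested genes, but none passed the test. As a difference of mean log2(FPKM + 1), a scale on which low genes change less than their FPKM, it was 1.23 ± 0.61 (SE) for Dcn, 1.10 ± 0.59 for Ptgds, 0.49 ± 0.24 for Vtn and 0.43 ± 0.21 for Col1a1. The 95% confidence intervals ran from -0.17 to 2.64 for Dcn, -0.25 to 2.45 for Ptgds, -0.06 to 1.04 for Vtn and -0.04 to 0.91 for Col1a1. Each interval includes 0, and each also includes a difference larger than the one observed. In limma, fitted to all 9 libraries and adjusted over 2226 tested genes by the Benjamini-Hochberg method, the adjusted p was 0.998 for each, with unadjusted values of 0.0774 for Dcn, 0.0978 for Ptgds, 0.0738 for Vtn and 0.0704 for Col1a1. Of all tested genes 0% passed this threshold of 0.05, 3.91% had an unadjusted p under 0.05, and limma-voom on recovered reads also called 0 genes. The differences of Dcn and Ptgds were larger in size than those of 99.6% and 99.4% of tested genes, and those of Vtn and Col1a1 than those of 93.8% and 91.3%. The L and C libraries did not overlap for 2 of the 4, Col1a1 and Vtn, and 4.99% of all tested genes were separated with L above C. Col1a1 passed the filter on level only through L1, L2, L3 and H1. Its difference and separation here are therefore a description and not support for a difference. The members were chosen with earlier results of these data known, so the higher means in L are not independent support.

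The size of these differences depended on single libraries. Without L2 the Dcn difference between L and C was 0.71, and without C3 that of Ptgds was 0.59 and that of Vtn 0.31. Col1a1, at about 1 FPKM, moved most with the scale, and its difference was 0.86 with a pseudocount of 0.1 and 0.95 with limma-voom on recovered reads.

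The question of H against C was the same at the higher concentration. Ptgds had a higher mean in H, as did 52.7% of all tested genes, with a log2 difference of 0.64 ± 0.59 (SE) and a 95% interval from -0.71 to 1.99. The other 3 genes had nearly equal means in H and C: the difference was -0.05 ± 0.61 for Dcn, -0.03 ± 0.21 for Col1a1 and -0.0072 ± 0.24 for Vtn. Their intervals ran from -1.45 to 1.35, from -0.51 to 0.45 and from -0.56 to 0.54. For each of these 3 genes the interval still holds a difference as large as the one between L and C. For Dcn and Vtn the means of FPKM were slightly higher in H and those of log2(FPKM + 1) slightly lower. None passed (limma, adjusted p of 0.89 for Ptgds, 0.99 for Dcn, 0.994 for Vtn and 0.979 for Col1a1), 0% of all tested genes did, and 3.19% had an unadjusted p under 0.05. No member separated the H from the C libraries, while 10.3% of all tested genes did so in either direction. The Ptgds difference rested on H1 and C3, as it was 0.12 without H1 and 0.14 without C3, and it was 1.01 without H2. The directions of Dcn, Col1a1 and Vtn turned when single libraries were left out.

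In H against L, all 4 genes had lower means in H, where 44.9% of all tested genes had higher ones. The log2 difference was -1.28 ± 0.61 (SE) for Dcn, -0.50 ± 0.24 for Vtn, -0.46 ± 0.21 for Col1a1 and -0.45 ± 0.59 for Ptgds. None passed (limma, adjusted p = 0.961 for each, unadjusted 0.068 for Dcn, 0.0703 for Vtn, 0.0566 for Col1a1 and 0.462 for Ptgds), 0% of all tested genes passed, and 1.35% had an unadjusted p under 0.05. Groups overlapped for each of the 4, since H1 reached into the L range for each gene, and 9.07% of all tested genes were without overlap. This comparison shares the L libraries with that of L against C, so the values are not a repeat of it. The same limit holds for Col1a1, which passed the filter only through the L libraries and H1. The Dcn difference was -0.76 without L2, and that of Ptgds ranged from -0.98 without H1 to -0.09 without H2. Over the 3 groups together, the order of mean FPKM, high to low, was L, H, C for Ptgds, Dcn and Vtn and L, C, H for Col1a1. No neighbouring pair in these orders passed the test, and neither did the 3 groups in 1 joint test (limma F test, adjusted p = 0.958 for each gene).

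**Figure D2:**
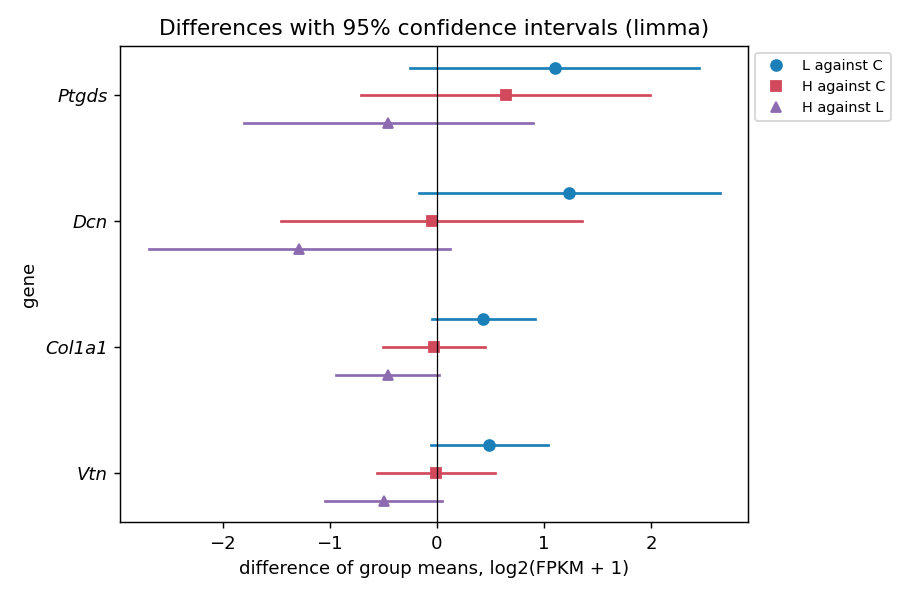
Differences of group means on the scale of log2(FPKM + 1) with 95% confidence intervals from limma, for L against C, H against C and H against L, by gene. Every interval includes 0, and for Dcn, Col1a1 and Vtn the H against C points lie close to 0.

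The clearest feature of these genes was a shared order of the libraries that crossed the exposure groups. L2 was the highest library for each of the 4, and H1 was among the 3 highest for each. H2, H3 and C3 were the 3 lowest for each of them. Of all tested genes, 13.1% were highest in L2, 35.5% had H1 among the 3 highest, and 3.41% had H2, H3 and C3 as the 3 lowest. These orders were read off after the values were seen and are a description. Within H, the 3 libraries thus split, with H1 at 589.2 FPKM of Ptgds against 170.7 and 226.5 in H2 and H3, and at 5.14 FPKM of Dcn against 1.32 and 1.35.

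Over the 9 libraries, the members were correlated on the scale of log2(FPKM + 1). The 6 pairs were tested with an exact permutation test, two-sided and adjusted over the pairs. The members were chosen with earlier results of these data known, and the libraries differed in brain region markers. These p-values are therefore not independent support, and the share of other gene pairs with such r was not computed. Col1a1 and Vtn had the highest Pearson r, 0.959 (exact p = 0.000262, adjusted 0.000785), with a Spearman rho of 0.917 (exact p = 0.00131, adjusted 0.00262). For Dcn and Vtn r was 0.932 (exact p = 7.72e-05, adjusted 0.000463) and rho 0.95 (exact p = 0.000353, adjusted 0.00212). For Dcn and Col1a1 r was 0.878 (exact p = 0.0019, adjusted 0.0038) and rho 0.883 (exact p = 0.00308, adjusted 0.00369). For Ptgds r was 0.865 with Vtn (exact p = 0.0027, adjusted 0.00405; rho 0.933, exact p = 0.00075, adjusted 0.00225) and 0.831 with Col1a1 (exact p = 0.00461, adjusted 0.00553; rho 0.867, exact p = 0.00451, adjusted 0.00451). With Dcn it was 0.734, the lowest of the 6 (exact p = 0.0248, adjusted 0.0248; rho 0.883, exact p = 0.00308, adjusted 0.00369).

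Correlations of deviations from the group means, which leave out any difference between exposure groups, were 0.929 for Col1a1 and Vtn, 0.913 for Ptgds and Vtn, 0.905 for Ptgds and Col1a1, 0.884 for Dcn and Vtn, 0.783 for Dcn and Col1a1 and 0.709 for Ptgds and Dcn. The first 5 each had an adjusted exact p of 0.0389 and the last 0.0602. By Spearman rho the last was at 0.829 (adjusted exact p = 0.0463). The members thus also varied together inside the groups. Without C1 and L3, the libraries set apart by their cerebellar markers, r was 0.829 to 0.981 in 7 libraries and each of the 6 pairs passed. Without the 2 libraries farthest from the median of the first gene, r was 0.939 for Col1a1 and Vtn (H2 and L2 left out) and 0.911 for Dcn and Vtn (L2 and L3 left out), both with an adjusted exact p of 0.0161. The other 4 pairs then had r of 0.482 to 0.762 and did not pass by r (adjusted exact p of 0.0909 to 0.285). By Spearman rho, Ptgds and Vtn still passed (0.857, adjusted exact p = 0.0476). Ptgds and Dcn (0.75), Ptgds and Col1a1 (0.821) and Dcn and Col1a1 (0.786) did not (adjusted exact p of 0.0512 to 0.0663). These 4 relations were thus weaker by r without L2 and C3 or L3. Leaving out the most extreme libraries narrows the range, which by itself can lower r.

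**Figure D3:**
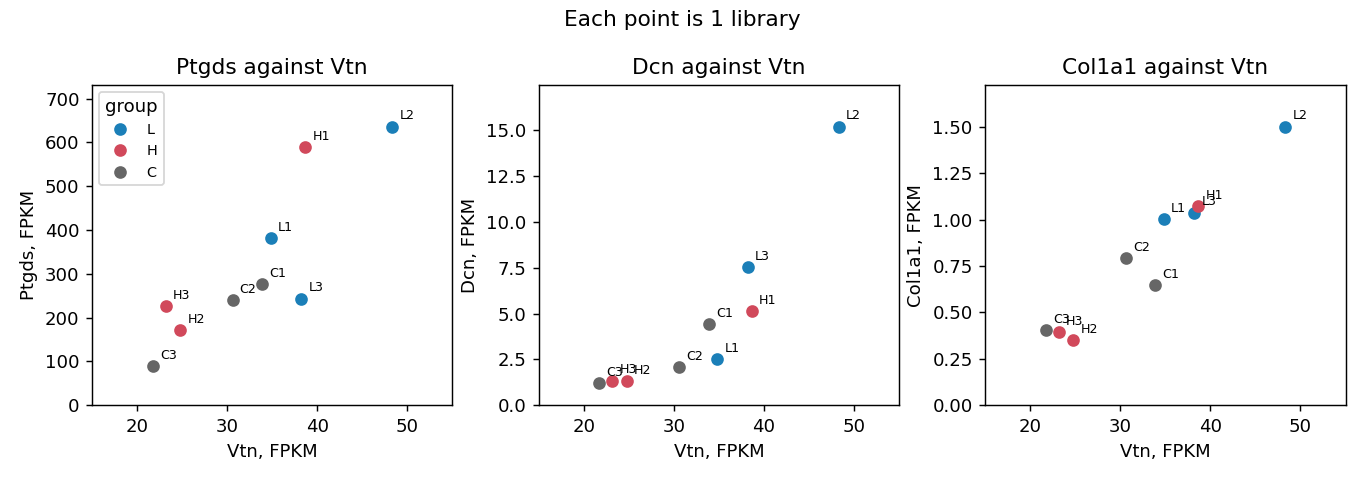
Ptgds, Dcn and Col1a1 in FPKM against Vtn in FPKM, 1 point per library, coloured by group. Col1a1 lies close to a line through the libraries of all groups, while Dcn stays low in L1 (2.50 FPKM) and stands out in L2 (15.2 FPKM).

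The ratios between members varied in their own way. The ratio of Col1a1 to Vtn stayed between 0.0272 and 0.0311 in L1, L2, L3 and H1, and was 0.0142 to 0.0259 in the other 5 libraries. The ratio of Dcn to Col1a1 was 2.49 in L1, 10.1 in L2 and 7.26 in L3, it was 4.79, 3.74 and 3.42 in H1 to H3, and it was 6.82, 2.64 and 2.99 in C1 to C3. L1 therefore had the lowest and L2 the highest Dcn per Col1a1 of all libraries, inside the same group. Ptgds per Vtn was highest in H1 (15.2) and L2 (13.2) and lowest in C3 (4.11). Dcn and Ptgds were also more variable inside groups than most genes, with a residual SD of 0.88 and 0.84 log2 units against a median of 0.25 over all tested genes. Among genes within a 2-fold range of the same mean level, 95.7% of 864 had a smaller residual SD than Dcn and 92.1% of 38 a smaller one than Ptgds. For Vtn and Col1a1 the residual SD was 0.32 and 0.25, on a scale that narrows the spread of Col1a1 at its low level. In FPKM the highest library of Col1a1 was 4.26 times the lowest, against 2.22 times for Vtn.

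The genes most like each member over the 9 libraries were named by the highest Pearson r among all tested genes, as a description. For Col1a1 these were Cnn2 (r = 0.985), Vtn and Aebp1 (0.938). Cnn2 encodes calponin 2, an actin-binding protein, and Aebp1 a secreted collagen-binding protein. For Vtn they were Col1a1, Rcn3 (0.953), which encodes a calcium-binding protein of the endoplasmic reticulum, and Cnn2 (0.95). For Dcn they were Vtn, Rcn3 (0.903) and Cnn2 (0.898). For Ptgds they were Mrc2 (0.955), a collagen-binding endocytic receptor, Slc13a3 (0.936), a dicarboxylate transporter, and Rcn3 (0.934). Aebp1 was at 7.14, 11.5 and 6.15 FPKM in L1 to L3, at 8.38, 2.06 and 3.48 in H1 to H3, and at 6.12, 4.22 and 2.84 in C1 to C3. It repeats the order of the members, with L2 and H1 high and H2 and C3 low. Rcn3 was at 1.39, 2.48 and 1.33 FPKM in L, at 1.57, 0.721 and 0.923 in H, and at 1.29, 1.06 and 0.493 in C. Slc13a3 was at 3.31, 6.81 and 3.15 FPKM in L, at 5.50, 1.58 and 1.89 in H, and at 3.93, 2.63 and 1.26 in C.

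Of 30 other fibroblast markers, 7 were measured and 6 tested. All 6 had higher means in L and in H than in C, and lower means in H than in L, and 0 passed in any comparison (limma). Of all tested genes, 56.3% had a higher mean in L than in C and 52.7% in H than in C. In H, 44.9% had a higher mean than in L. The 6 differences in H against C were each smaller than their SE, from 0.0082 ± 0.53 (SE) for Aldh1a2 to 0.30 ± 0.79 for Sparc. Their median log2 difference was 0.73 in L against C, where the median of all tested genes was 0.03, and 0.14 in H against C and -0.70 in H against L, where those medians were 0.02 and -0.03. Fbln1, which encodes the matrix protein fibulin 1, was at 3.14, 3.93 and 2.33 FPKM in L1 to L3, at 2.33, 1.28 and 1.23 in H1 to H3, and at 1.91, 1.28 and 1.34 in C1 to C3. It was higher in every L library than in every C library, with a log2 difference of 0.71 ± 0.22 (SE; limma, adjusted p = 0.998). Fbln5, which encodes fibulin 5 of elastic fibres, differed by 1.07 ± 0.29 without overlap, and its highest libraries were L1 (4.38 FPKM) and L3 (4.22) rather than L2 (2.13). Aldh1a2, which makes retinoic acid in the meninges, was at 10.005 FPKM in L2 and 8.54 in H1 and at 1.26 in H2, and its r with the members was 0.916 for Ptgds, 0.802 for Dcn, 0.897 for Col1a1 and 0.893 for Vtn. Sparc, a collagen-binding matrix protein that brain cells other than fibroblasts also make, held most of the summed level of the list and went another way: it was at 68.9 FPKM in L2, against 246.6 in L1 and 349.1 in L3. Its r with the members was 0.301 to 0.471. Dpep1 was at 0.271 FPKM or less in every library and was not tested. Aldh1a2 and Fbln1 thus varied with the 4 members over the libraries, and Sparc did so less.

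**Figure D4:**
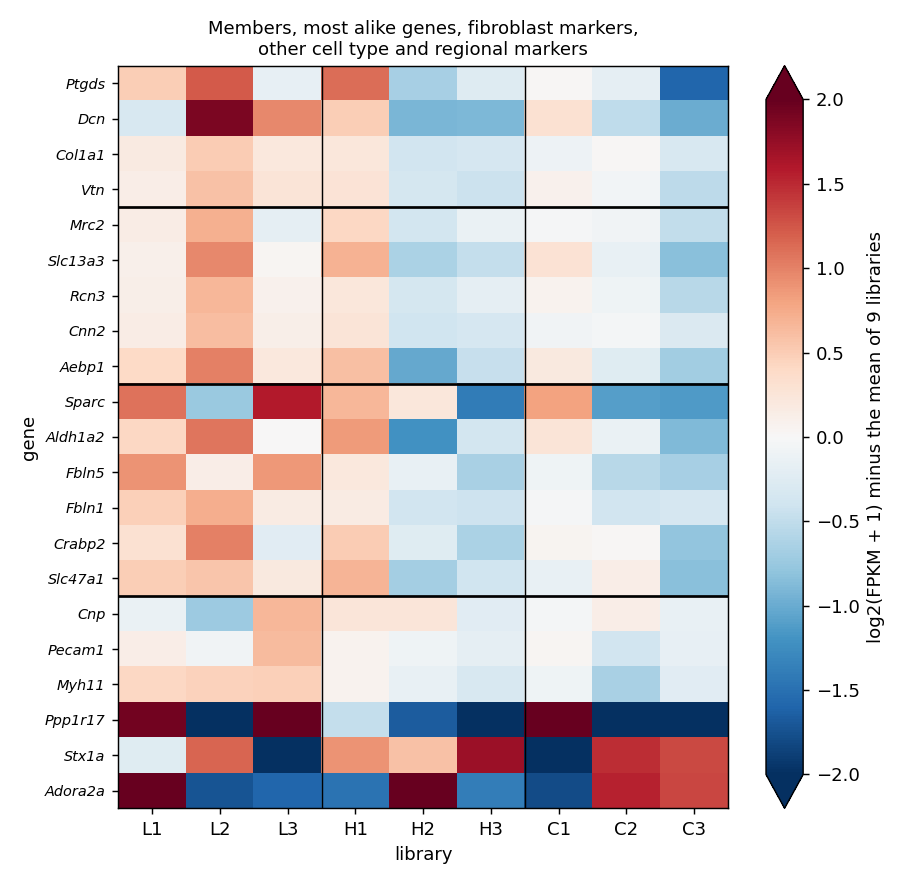
log2(FPKM + 1) minus the mean of 9 libraries (colour, cut at 2 log2 units either way) in each library, for the 4 members, then the 5 other genes most like them, the 6 tested fibroblast markers, and Cnp, Pecam1, Myh11, Ppp1r17, Stx1a and Adora2a as markers of oligodendrocytes, endothelium, smooth muscle, cerebellum, pallium and striatum. L2 and H1 are raised in the first 2 blocks. Sparc and most markers of the last block follow other orders, while Myh11 is high in L1, L2 and L3.

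Genes of collagen and matrix assembly were less uniform. Of 41 listed, 14 were measured and tested. In L against C 12 had a higher mean and 2 a lower one, in H against C 7 and 7, and in H against L 2 and 12, with 0 past the threshold in each (limma). Timp2, an inhibitor of matrix metalloproteinases, was at 169.7, 146.3 and 115.8 FPKM in L1 to L3, at 135.5, 120.2 and 82.4 in H1 to H3, and at 28.3, 72.9 and 89.9 in C1 to C3. Its difference was 1.30 ± 0.40 (SE) in L against C without overlap (limma, adjusted p = 0.998). Timp3, of the same family, was at 14.4 to 19.1 FPKM in L, 9.02 to 16.4 in H and 10.3 to 14.5 in C. P4ha1, an enzyme that hydroxylates collagen, was at 9.17 to 13.6 FPKM in L, 8.68 to 10.9 in H and 8.60 to 13.2 in C. Of the collagen VI chains, Col6a1 was highest in H2 (12.1 FPKM), where Col1a1 was lowest, and Col6a2 was highest in L2 (2.28 FPKM), as Col1a1 was.

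Among relatives and partners of decorin, 8 of 22 were measured and 5 tested, with 2 higher and 3 lower means in L against C and 1 higher and 4 lower in H against C, and 0 past the threshold (limma). The relatives Epyc and Kera were at 0.735 FPKM or less in every library. Tgfbr1, a receptor of transforming growth factor beta, was at 5.30 to 6.18 FPKM in L, 4.73 to 5.79 in H and 3.34 to 4.80 in C. Igf1r, a receptor that decorin binds, was at 5.90 to 7.53 FPKM in L, 6.19 to 6.79 in H and 7.90 to 10.2 in C. Tgfb3 was at 3.09 to 4.64 FPKM in L, 2.69 to 3.52 in H and 3.27 to 6.54 in C, and Egfr was at 1.34 to 1.74 FPKM throughout. Of the prostaglandin pathway 3 of 22 genes were measured. Akr1b3, an aldose reductase, was at 4.21 to 5.11 FPKM in L, 4.37 to 4.96 in H and 3.24 to 4.52 in C. Ptgis, which makes prostacyclin, was at 0.807 to 2.40 FPKM in L, 1.07 to 1.98 in H and 0.454 to 2.35 in C, and Ptger1, a receptor of prostaglandin E2, was at 0.0641 FPKM or less. Of the partners of vitronectin 2 of 17 were measured, the integrin genes Itgb3 at 0.316 to 1.18 FPKM and Itga5 at 0.425 to 1.47 FPKM over the 9 libraries. Both tested prostaglandin genes had higher means in L and in H than in C, Itga5 differed by 0.05 in L against C, and 0 of them passed (limma).

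Markers of other cells that could hold the 4 transcripts were set beside them. Of 16 pericyte and smooth muscle genes 3 were measured, with a summed level of 8.56 to 9.99 FPKM in L, 5.10 to 7.18 in H and 5.12 to 6.51 in C. Myh11, the smooth muscle myosin heavy chain, carried most of it and was higher in every L library (6.09 to 6.43 FPKM) than in every H (3.26 to 4.61) and C library (2.40 to 4.002). The pericyte gene Higd1b was at 1.74 to 2.24 FPKM in L, 1.37 to 2.20 in H and 1.08 to 3.25 in C. Of 19 endothelial genes 4 were measured, with a sum of 17.3 to 21.5 FPKM in L, 15.3 to 19.2 in H and 14.4 to 16.1 in C. Vwf, which encodes von Willebrand factor, was at 2.56 to 4.44 FPKM in L, 1.63 to 2.56 in H and 1.77 to 1.95 in C. The endothelial genes Pecam1, Esam and Tek overlapped between L and C, with log2 differences of 0.40, 0.11 and 0.05, and so did the smooth muscle gene Cnn1. Of the 7 measured genes of both lists, 2, Myh11 and Vwf, were thus higher in every L than in every C library, as Col1a1 and Vtn were. Of all tested genes, 4.99% were separated in this way, and 0 genes of either list passed in any comparison (limma). The part of Myh11 and Vwf in the result was not tested. Over the 9 libraries, the r with Vtn was 0.69 for Myh11 and 0.62 for Tek. It was 0.40 to 0.48 for Higd1b, Cnn1, Pecam1, Esam and Vwf, and 0.67 for the fibroblast marker Fbln5. With Dcn the r of Myh11 was 0.70 and that of Fbln5 0.53. Varying with the members was thus not particular to fibroblast markers. In H1 the vessel-wall sum (7.18 FPKM) and the endothelial sum (19.2 FPKM) were the highest of their group, as were the 4 members. In L2, the highest library of each member, the vessel-wall sum was the highest of group L (9.99 FPKM). The endothelial sum of L2 was the lowest of that group (17.3 FPKM, against 19.9 in L1 and 21.5 in L3).

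Choroid plexus markers, 4 of 19 measured, summed to 0.709 to 2.81 FPKM in L, 0.811 to 1.06 in H and 0.674 to 6.24 in C, and none was at 0 in every library. They were highest in C2, where the members were intermediate, and L2, the highest library of each member, was at 0.709 FPKM. Oligodendrocyte markers, 2 of 22 measured, summed to 50.9 to 134.9 FPKM in L, 72.3 to 101.4 in H and 76.0 to 93.1 in C. Cnp, an enzyme of myelin, was lowest in L2 (49.1 FPKM), where Ptgds was highest, and highest in L3 (129.5 FPKM), where Ptgds was at 243.2. Liver markers, 3 of 13 measured, summed to at most 0.889 FPKM in L, 1.13 in H and 1.03 in C, and the blood marker Slc4a1, 1 of 9, was at 0.417 FPKM or less. Astrocyte markers (6 of 15) summed to 663.6 to 1019 FPKM in L, 554.9 to 718.2 in H and 676 to 823.7 in C. Microglia and macrophage markers (2 of 20) summed to 9.24 to 23.8 FPKM in L, 9.21 to 13.6 in H and 8.39 to 15.7 in C. Hypothalamic markers (5 of 16) summed to 34.6 FPKM in L1 and to at most 7.83 in the other libraries. In these lists 0 genes passed in any comparison (limma).

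Striatal markers moved in part against the members, most of all against Dcn. L2, L3 and H1, the 3 highest libraries of Dcn, had 2.75, 2.98 and 3.03 FPKM of summed striatal markers, while H2 and C3, which were among the 3 lowest for each member, had 55.7 and 26.4. H3, the other low library, had 3.09, and L1, which was low in Dcn for its group, had 59.8. Over the 9 libraries, which share these regional differences, the r of Dcn was -0.60 with Rgs9, -0.66 with Adora2a and -0.56 with Rarb, the 3 measured striatal markers. For Ptgds, Col1a1 and Vtn it lay between -0.33 and -0.48. The summed pallial level, over 3 of 14 markers, was 96.5 FPKM in L2, 77.3 in H1 and 125.4 in H3, against 5.22 in L3 and 3.08 in C1. With a score of cerebellar minus pallial markers as a covariate, the L against C differences were 1.21 for Dcn, 1.09 for Ptgds, 0.48 for Vtn and 0.43 for Col1a1. With a striatal score they were 1.14 for Dcn, 1.04 for Ptgds, 0.46 for Vtn and 0.42 for Col1a1. Both scores were added after the data were seen, and the striatal one follows the correlations with Dcn in these same libraries. The striatal score lowered the SE of Dcn to 0.41, against 0.61 without it. The unadjusted p of Dcn was then 0.0241 in L against C, where 95 of 2226 tested genes were under 0.05, and 0.0145 in H against L, where 31 were (limma, adjusted p of 0.996 and 0.961). Without C1 and L3 the L against C differences were 1.52 for Dcn, 1.74 for Ptgds, 0.65 for Vtn and 0.50 for Col1a1. None passed in these fits (limma, adjusted p of 0.587 to 0.996). Without C1 and L3 the unadjusted p of Ptgds was 0.0354, where 130 of 2188 tested genes were under 0.05 (limma, adjusted p = 0.7975).

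**Figure D5:**
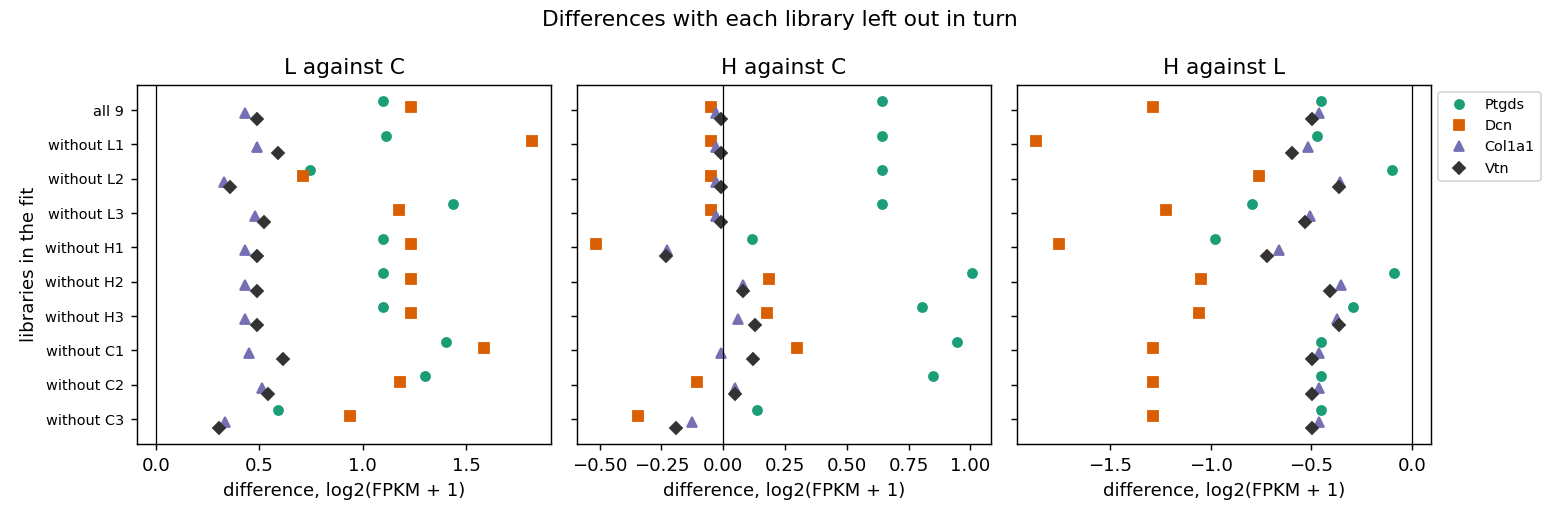
Differences on the scale of log2(FPKM + 1) for each member with all 9 libraries and with each library left out in turn, for L against C, H against C and H against L. In L against C and H against L each gene stays on 1 side of 0, while in H against C Dcn, Col1a1 and Vtn change sides.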

How the data were processed

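Total RNA of brain was sequenced as mRNA libraries, 3 per group, per the labels. Values are FPKM as the authors deposited them, in a table that also states each gene's length, per the file headers. GRCm38 is the build named by the submitters' processing notes. For the aligner and counter, names were not given in the sources used here. Coordinates were taken from GENCODE M21 by gene ID. Those in the table equalled it for 20 of 2996 genes, while 2950 had the same span, so the build of the table's coordinates may differ from GRCm38 and they were not used. FPKM times length was a whole multiple of 1 read within 0.01 reads for 100% of values, which gave reads per gene. The test covered the 2226 genes that exceeded 1 FPKM in 3 or more libraries. A linear model with 3 groups was fitted to log2(FPKM + 1) in limma 3.58.1 (R 4.3.3) with trend and robust moderation, two-sided, with Benjamini-Hochberg adjustment and a threshold of 0.05. A count model was provided for only if raw counts were given. The fit was tested on simulated data. Correlations used exact permutations in numpy 2.4.6. Members, lists and comparisons were chosen with earlier results of these data known. Named genes were the members, the 3 genes most like each, the up to 4 measured genes of highest mean per list, and neighbours. Col6a1, Col6a2, Crabp2, Dpep1, Epyc and Kera were named outside this rule after their values were seen. Alternatives covered pseudocount, filter, scaling, limma-voom, moderation, samples in the fit, the replicate block and libraries left out; the regional covariates and the deviations from group means were added after the data were seen.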

Additional observations from a re-analysis of the deposited data

How the results depend on the processing

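Over 22 alternatives, 261 differences of the 4 members were recomputed, of which 0 passed the threshold and 14 changed direction, all in H against C. There Dcn was at 0.19 without H2, 0.18 without H3, 0.30 without C1 and likewise without C1 and L3, and 0.0694 with the cerebellar minus pallial score. Col1a1 was at 0.0815 without H2, 0.06 without H3 and 0.0495 without C2. Vtn was at 0.08 without H2, 0.13 without H3, 0.12 without C1 and likewise without C1 and L3, 0.05 without C2 and 0.0422 with the cerebellar minus pallial score. The cause was not tested. With single libraries left out, H against C ranged from 0.12 to 1.01 for Ptgds, -0.52 to 0.30 for Dcn, -0.23 to 0.0815 for Col1a1 and -0.23 to 0.13 for Vtn. L against C ranged from 0.59 to 1.43 for Ptgds, 0.71 to 1.82 for Dcn, 0.33 to 0.51 for Col1a1 and 0.31 to 0.62 for Vtn, and H against L from -0.98 to -0.09, -1.87 to -0.76, -0.66 to -0.35 and -0.72 to -0.36. Where this left a group with 2 libraries, the spread was pooled over all groups.

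The labels give the groups the same replicate numbers, but same-numbered libraries deviated together in only 3 of 9 pairs (r over 0.1, in a range of -0.51 to 0.68). The deviations also hold the regional differences between libraries, so they cannot decide whether the numbers mark a pairing. With the replicate number as a block no member passed (limma, adjusted p of 0.86 to 0.996), and the L against C differences stayed at 1.23 for Dcn and 1.10 for Ptgds. 3 of 9 libraries correlated best with their own number.

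Of the correlations by Pearson r, Ptgds and Dcn no longer passed without the 2 farthest libraries (0.482) or as deviations from group means (0.709). Without the 2 farthest libraries neither did Ptgds and Col1a1 (0.737), Ptgds and Vtn (0.697) or Dcn and Col1a1 (0.762). By Spearman rho, Ptgds and Vtn did pass without those libraries (0.857, adjusted exact p = 0.0476), and Ptgds and Dcn as deviations (0.829, adjusted exact p = 0.0463). With a filter of 5 FPKM Col1a1 was not tested. At an unadjusted p under 0.05, 0 to 3 of the 4 members passed, the most in H against L without H1, where 37 of 2217 tested genes did, and none of these held after adjustment. The 2 planned count models other than limma-voom were not run, as the table holds no raw counts, and limma-voom used the recovered library totals. Depth limits Col1a1 most, at 41 to 197 reads per library.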

Other observations

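The order of libraries shared by the 4 members (L2 highest, H1 among the 3 highest, and H2, H3 and C3 the 3 lowest) was found in 14 of 2226 tested genes, or 0.629%. The order was chosen after the values were seen, so this is a description with no test. The other genes with it were Aldh1a2, Crabp2, Aebp1, Cnn2, Efemp1, Rcn3, Slc13a3, Cacfd1, Hdac5 and Pwp1. Aldh1a2 and Crabp2, which encode an enzyme and a binding protein of retinoic acid, are fibroblast markers of the list used here, and Efemp1 encodes a matrix protein of the fibulin family. Crabp2 was at 2.31, 4.39 and 1.28 FPKM in L1 to L3, at 2.81, 1.26 and 0.719 in H1 to H3, and at 1.76, 1.73 and 0.541 in C1 to C3. Hdac5, a histone deacetylase, and Pwp1 are not known as fibroblast genes.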
